A study of Mus musculus with 5 samples.

Results

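The genes described here are 34 genes of endothelial cells, the cells that line blood and lymphatic vessels, as counted in RNA of mouse forelimb buds. They were listed by name as genes of endothelium, with earlier results of these data known, and all 34 were found among the 23284 gene symbols of the tables. The 5 libraries comprised 1 of E10.5 forelimb bud of strain CD1, and 2 each of the distal forelimb at E11.5, where the digits form, from wild-type and from Hoxa13-/-;Hoxd13-/- embryos, called mutant below. Both E11.5 groups were of a mixed C57BL/6 and CD1 background, and the mutants carried a neomycin cassette in the Hoxa13 coding region and a lacZ insertion in the first exon of Hoxd13, in every cell of the embryo. The RNA came from pools of dissected tissue, with 2 independent pools per E11.5 genotype, so a p-value here measures the spread between pools. Stage, dissected part and strain label all differ between the E10.5 library and the others and cannot be told apart.

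Endothelial cells enter the limb bud early and form a plexus that is remodelled as the skeleton condenses. Their growth is driven by VEGF ligands from the surrounding mesenchyme, read by the receptor tyrosine kinases KDR, FLT1 and FLT4, while the angiopoietin receptor TEK and its partner TIE1 steady the vessels. ETS factors (ERG, FLI1, ETS1) and SOXF factors (SOX7, SOX17, SOX18) maintain the endothelial gene programme, and Notch signalling through DLL4 sets arterial and tip cell fates.

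ETS factors bind a GGAA core, so a few member promoters are shown with that core marked. The promoter table of RefSeq (GRCm38.p6) held 19 of the 34 genes, not Lmo2 or Vwf, and the 250 bases before the first listed start were read. The 6-letter word CAGGAA, which contains the core, stood on either strand in 10 of the 19 (52.6%), against 25.4% of 27025 promoters of all genes in that table. In a second list of 30 endothelial genes without any member, 14 of 19 promoters held it (73.7%). The bare core GGAA, on either strand, was nearly everywhere, in 89.5% of the member promoters and 93.4% of all. CANNTG, the E-box read by TAL1 and its partners, stood in 63.2% and 66.0%, and ACAAT on either strand, a SOX core, in 26.3% and 28.3%. Member promoters had a median GC content of 58.4% against 52.0% for all, and a word match is not a binding site.

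The sequences run 5′ to 3′ in the direction of transcription, ending at the base before the start, with GGAA and TTCC in capitals. Flt1 and Gpr116 are shown because they rose in the mutant, Erg because it fell, with 2 of its 3 listed starts, and Esm1 because it was higher at E10.5. The windows are chr5:147726012-147726261 (minus strand) for Flt1, with 4 cores, and chr17:43360181-43360430 (plus strand) for Gpr116, with 7 cores and 2 CAGGAA words. For Erg they are chr16:95586594-95586843, with 0 cores, and chr16:95459349-95459598 (both minus strand), with 2 cores and 1 CAGGAA word. That of Esm1 is chr13:113209409-113209658 (plus strand), with 3 cores and 2 CAGGAA words.
Flt1: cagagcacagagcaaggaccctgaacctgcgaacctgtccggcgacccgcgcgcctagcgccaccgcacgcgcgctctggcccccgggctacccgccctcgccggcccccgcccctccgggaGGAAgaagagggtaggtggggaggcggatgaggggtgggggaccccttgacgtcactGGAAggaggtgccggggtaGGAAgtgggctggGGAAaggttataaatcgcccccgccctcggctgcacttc
Gpr116: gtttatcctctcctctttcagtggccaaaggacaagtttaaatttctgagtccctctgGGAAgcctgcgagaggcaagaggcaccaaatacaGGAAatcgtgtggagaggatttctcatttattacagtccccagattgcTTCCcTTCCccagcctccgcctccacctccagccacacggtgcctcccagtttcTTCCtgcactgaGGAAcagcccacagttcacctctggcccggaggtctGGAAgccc
Erg, upstream start: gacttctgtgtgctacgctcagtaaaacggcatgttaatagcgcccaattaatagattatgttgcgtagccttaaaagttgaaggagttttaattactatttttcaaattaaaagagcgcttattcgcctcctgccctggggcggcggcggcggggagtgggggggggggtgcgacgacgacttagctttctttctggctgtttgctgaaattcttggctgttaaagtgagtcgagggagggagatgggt
Erg, downstream start: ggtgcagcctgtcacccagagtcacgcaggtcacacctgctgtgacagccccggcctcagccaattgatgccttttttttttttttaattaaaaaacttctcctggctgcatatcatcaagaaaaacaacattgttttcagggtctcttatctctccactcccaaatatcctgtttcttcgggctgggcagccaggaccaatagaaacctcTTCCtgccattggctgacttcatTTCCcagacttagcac
Esm1: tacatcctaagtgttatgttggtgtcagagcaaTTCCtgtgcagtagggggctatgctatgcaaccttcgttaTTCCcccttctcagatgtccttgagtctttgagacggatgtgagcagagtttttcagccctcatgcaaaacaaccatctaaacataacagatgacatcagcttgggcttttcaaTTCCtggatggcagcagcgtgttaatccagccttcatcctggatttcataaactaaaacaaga

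Reads counted in genes ranged from 45115494 to 84172202 per library. Values are CPM, the share of a library's gene counts that fell on the gene, in counts per 1000000, and means carry the SD over the 2 libraries of a genotype. The targeted gene Hoxd13 fell in the mutant (log2 fold change -2.50), while Hoxa13 did not pass the test (-0.17); the insertion in Hoxa13 can leave reads elsewhere in the transcript, so its level does not check the labels. Pecam1 and Cdh5, pan-endothelial genes of cell adhesion, measured 42.7 to 51.1 and 17.8 to 44.2 CPM across the 5 libraries. No member was at 0, but each library had counts for 18039 to 18415 of the 23284 symbols. Detection alone therefore does not check the label of the list. In bulk tissue, fewer endothelial cells and less RNA per cell cannot be told apart. Several members are also used by other cells: TAL1 and LMO2 by blood cells, ERG by forming joint cartilage, VWF by platelets and LYVE1 by macrophages.

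**Figure D1:**
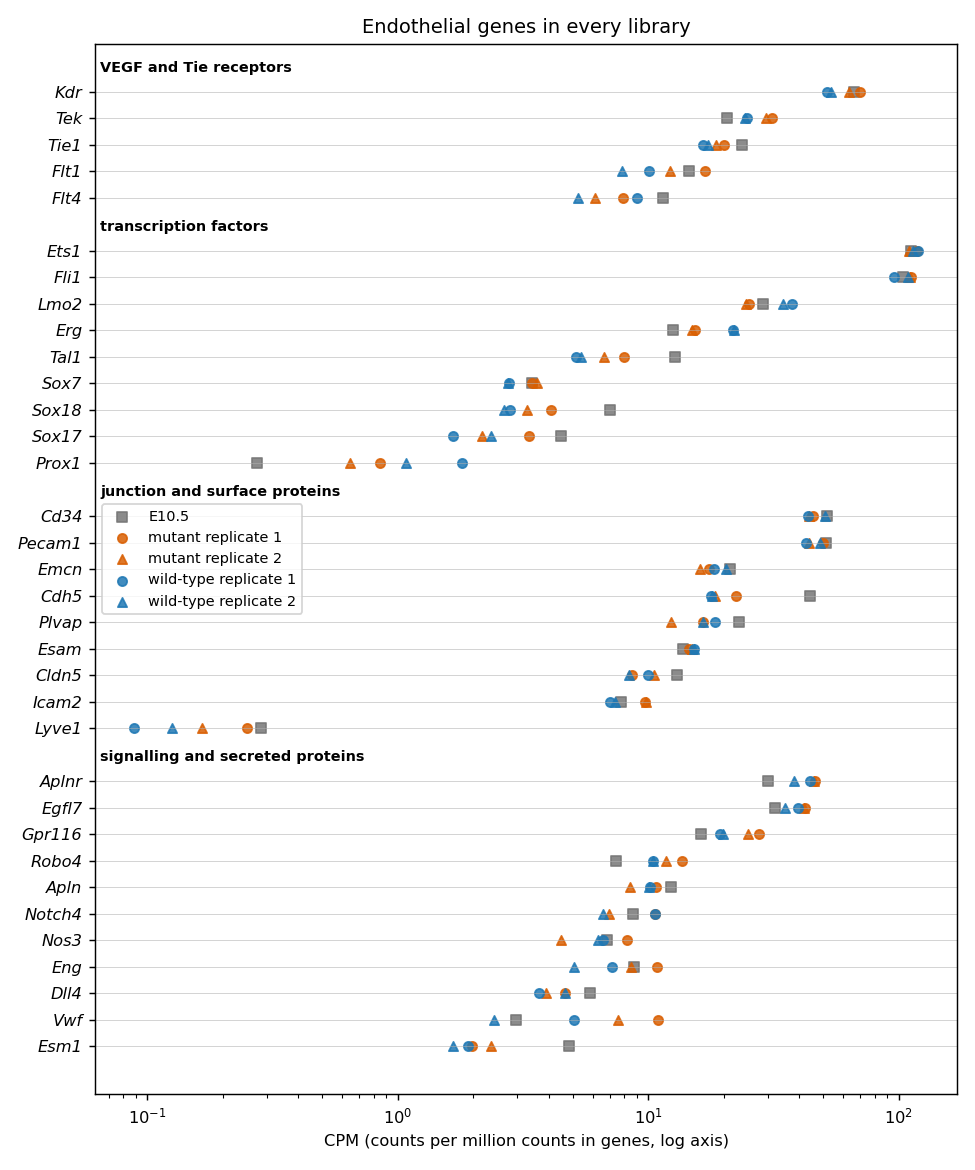
CPM of the 34 endothelial genes (log axis) in each of the 5 libraries, grouped by role; squares are E10.5, and circles and triangles are replicates 1 and 2 of mutant and wild type. Lmo2 and Erg lie lower in both mutant libraries than in both wild-type libraries, and Vwf and Flt1 lie higher, while Fli1 and Ets1 near 100 CPM barely separate.

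The first comparison asked which endothelial genes differ between mutant and wild-type distal limb at E11.5. Of the endothelial genes 5 changed: the VEGF receptor gene Flt1, the adhesion receptor gene Gpr116 and the clotting factor gene Vwf rose, and the transcription factor genes Erg and Lmo2 fell. Of 33 genes that passed the filter on low counts, 3 rose and 2 fell, against 3.82% risen and 3.34% fallen of all 16166 genes tested, by the edgeR quasi-likelihood test at an adjusted p below 0.05. The median log2 fold change of the 33 was 0.15, with 22 above 0, against -0.00082 over all genes. In 17 members both mutant libraries lay above both wild-type libraries and in 5 below, against 26.6% and 22.9% of all genes. At an unadjusted p under 0.05, 8 were up and 3 down, against 9.79% and 9.58% of all genes. The summed CPM of the 34 was 808 and 743 in the mutant libraries and 732 and 727 in wild type. On that sum the mutant libraries were higher by little, and mutant replicate 1 was the highest. Ets1 and Fli1 alone made up 16.0% and 14.0% of the wild-type sum. The 11 pan-endothelial members summed to 299 and 279 CPM in the mutant and 254 and 259 in wild type. In 28 of the 33 members mutant replicate 1 also exceeded mutant replicate 2, where 47.6% of all genes did. Without mutant replicate 1 the member median was 0.10 and 1 gene rose, Vwf.

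**Figure D2:**
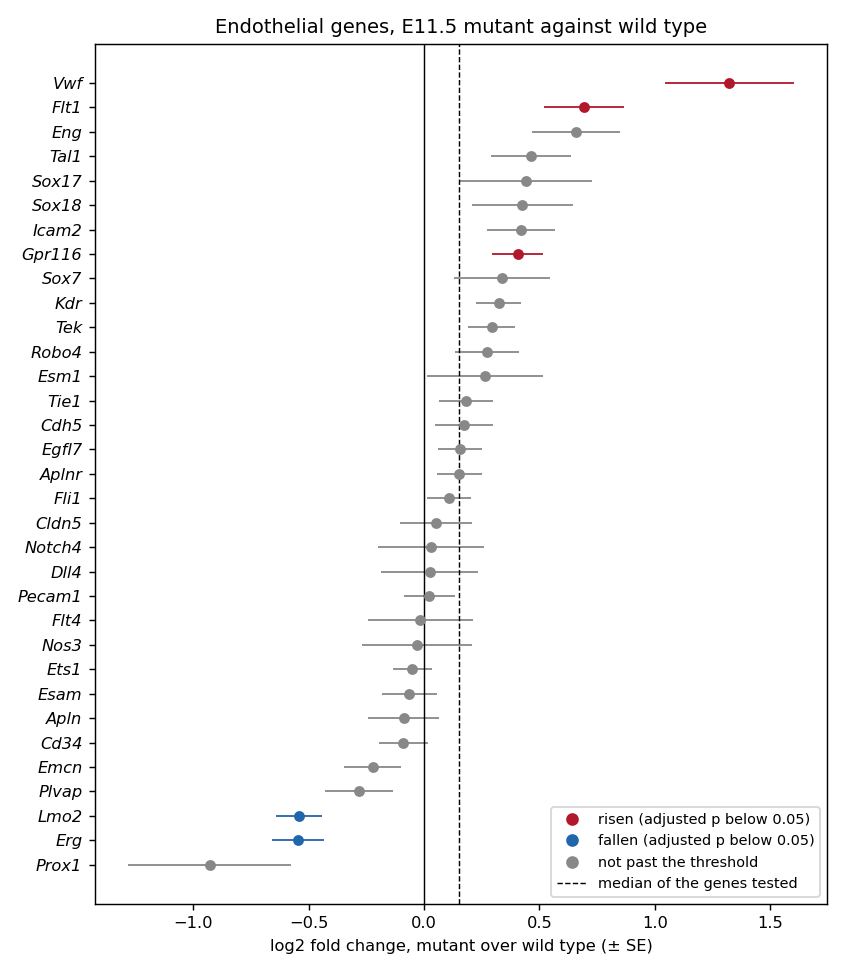
Log2 fold change, mutant over wild type, with its SE, for the 33 endothelial genes tested; red and blue mark genes past an adjusted p of 0.05 and the dashed line is their median, 0.15. Vwf stands farthest to the right at 1.32, and Erg and Lmo2 stand together near -0.54, below all other genes but Prox1.

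Among the receptors, Flt1, which encodes the VEGF receptor that also acts as a decoy, rose. Its levels were 16.9 and 12.2 CPM in the mutant and 10.1 and 7.88 in wild type. The groups do not overlap, though each varied by over 2 CPM within itself, and the log2 fold change was 0.69 (SE 0.17, adjusted p = 0.0329). Without mutant replicate 1 it was 0.43 with an adjusted p of 0.344, and without wild-type replicate 2 it was 0.55 with 0.0600. Kdr, the main signalling receptor for VEGF-A, measured 70.1 and 63.0 CPM in the mutant and 51.6 and 53.7 in wild type (0.32, SE 0.10, adjusted p = 0.0728). The groups were apart for Kdr too, but the test was not passed. Leaving out each E11.5 library in turn gave Kdr log2 fold changes of 0.24 to 0.40. Of those fits, only that without wild-type replicate 2 (0.38) passed. The ratio of Flt1 to Kdr counts, in which library scaling cancels, was 0.241 and 0.194 in the mutant and 0.195 and 0.147 in wild type, so the ratios overlap. Tek, the angiopoietin receptor, had 31.1 and 29.5 against 24.7 and 24.2 CPM (0.29, adjusted p = 0.119). Tie1, its orphan partner, had 0.18 (adjusted p = 0.449), and Flt4, the receptor of lymphatic growth, had -0.02 (adjusted p = 0.982). Thus 1 of 5 receptors rose, and 4 of 5 had both mutant libraries above both wild-type libraries, as did 26.6% of all genes.

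Among the transcription factors, 2 of 9 fell and 0 rose, against 3.34% and 3.82% of all genes. At an unadjusted p under 0.05 by the edgeR test, 3 were down and 1 up, against 9.58% and 9.79% of all genes. DESeq2 also called 0 upward. Erg, the ETS factor that keeps endothelial identity and junctions, measured 15.4 and 14.9 CPM in the mutant and 21.8 and 21.9 in wild type. Replicates agree within 1 CPM and the genotypes are well apart, and the log2 fold change was -0.54, with an SE of 0.11 and an adjusted p of 0.0121. The call ended without mutant replicate 2 (-0.51, adjusted p = 0.0745). Lmo2, an adaptor that joins TAL1 to GATA factors in endothelium and blood, measured 25.3 and 24.6 CPM in the mutant and 37.5 and 34.5 in wild type (-0.54, SE 0.10, adjusted p = 0.00578). Its call held without each of the 4 libraries in turn, with log2 fold changes of -0.57 to -0.51. The other ETS factor genes did not pass the test: Fli1 had 112 and 111 against 95.6 and 108 CPM (0.11, adjusted p = 0.614) and Ets1 had 118 and 110 against 119 and 114 (-0.05, adjusted p = 0.818). Erg counts were 0.138 and 0.134 of those of Fli1 in the mutant and 0.228 and 0.202 in wild type.

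Tal1, the basic helix-loop-helix partner of LMO2, differed from Lmo2 in direction, with 7.99 and 6.62 CPM in the mutant against 5.14 and 5.37 in wild type (0.46, SE 0.17, adjusted p = 0.154). Its groups did not overlap, but the test was not passed. Lmo2 counts were 3.16 and 3.71 times those of Tal1 in the mutant and 7.30 and 6.43 times in wild type, so this ratio separates the genotypes. These pairs of genes were chosen after their values were seen. The SOXF genes had log2 fold changes of 0.34 (Sox7), 0.44 (Sox17) and 0.43 (Sox18), with adjusted p of 0.423, 0.452 and 0.315. Sox18 had 4.09 and 3.27 CPM in the mutant against 2.79 and 2.65 in wild type, which do not overlap, as those of Sox7 do not, whereas those of Sox17 do. Prox1, the lymphatic master regulator, was rare, with 51 and 31 counts in the mutant and 81 and 60 in wild type (0.852 and 0.642 against 1.80 and 1.07 CPM). Its log2 fold change of -0.93 was the lowest of the members (SE 0.35) and did not pass the test (adjusted p = 0.158).

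None of the 8 tested genes of junction and surface proteins rose or fell by the edgeR test (1 had an unadjusted p under 0.05, upward, and DESeq2 also called 0). Pecam1 had 49.7 and 44.0 CPM in the mutant and 42.7 and 48.5 in wild type (0.02, SE 0.11, adjusted p = 0.948), and Cdh5, VE-cadherin, had 22.3 and 18.4 against 17.8 and 18.0 (0.17, adjusted p = 0.515). For these defining genes the genotypes overlap or nearly touch. Icam2, a ligand for leukocyte integrins, had 9.68 and 9.77 CPM in the mutant and 7.004 and 7.36 in wild type (0.42, SE 0.15, adjusted p = 0.121). It was the upward one. The tight junction gene Cldn5 (0.05) and the junction gene Esam (-0.06) lay near 0, as did the stem and endothelial cell sialomucin Cd34 (-0.09). The sialomucin gene Emcn (-0.22) and the diaphragm gene Plvap (-0.28), both higher in veins and capillaries, were lower in the mutant but did not pass the test. Lyve1, the hyaluronan receptor of lymphatic endothelium and some macrophages, had 15 and 8 counts in the mutant and 4 and 7 in wild type and was not tested.

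Among the 11 signalling and secreted proteins 2 rose and 0 fell by the edgeR test, against 3.82% and 3.34% of all genes. At an unadjusted p under 0.05 by that test, 3 were up and 0 down, against 9.79% and 9.58% of all genes. DESeq2 also called 0 downward. Vwf, which tethers platelets and is stored in endothelial granules, had the largest change of the members. It measured 10.9 and 7.60 CPM in the mutant and 5.03 and 2.42 in wild type, a log2 fold change of 1.32 ± 0.28 (SE) at an adjusted p of 0.0140. Both groups varied widely within themselves without overlapping, and the value ranged from 0.90 without wild-type replicate 2 to 1.90 without wild-type replicate 1, past the threshold in each of the 4 fits that leave out a library. Beside it, the 8 genes of the megakaryocyte and platelet list summed to 31.9 and 34.6 CPM in the mutant and 38.5 and 33.0 in wild type, and Ppbp, a platelet chemokine gene, fell (-0.80, adjusted p = 0.133 without mutant replicate 1). Gpr116, an adhesion G protein-coupled receptor, measured 27.5 and 24.99 CPM in the mutant and 19.4 and 19.9 in wild type (0.41, SE 0.11, adjusted p = 0.0480). That call was marginal: the adjusted p was 0.384 without mutant replicate 1, 0.0768 without mutant replicate 2, 0.0636 without wild-type replicate 1 and 0.0511 with the size factors of DESeq2.

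Eng, endoglin, a co-receptor for BMP9 and TGF-beta ligands, had 10.8 and 8.49 CPM in the mutant and 7.16 and 5.05 in wild type. The groups do not overlap and the log2 fold change was 0.66 (SE 0.19), short of the threshold at an adjusted p of 0.0610, but DESeq2 gave 0.0405. Without mutant replicate 2 it was 0.0101, without wild-type replicate 1 0.00274 and without mutant replicate 1 0.3998. The guidance receptor gene Robo4 had 0.27 (adjusted p = 0.308), and Egfl7, a secreted matrix protein of vessels, had 0.16 (adjusted p = 0.421). The apelin ligand gene Apln had -0.09 and its receptor gene Aplnr 0.15. The Notch ligand gene Dll4 had 0.02, the receptor gene Notch4 had 0.03, and Nos3, the endothelial nitric oxide synthase, had -0.03. Nos3 ranged from 8.19 to 4.47 CPM between the mutant replicates alone. In the annotation 25.2% of its exon length is shared with the antisense gene Gm15587, so its value is uncertain where strand was not kept in counting. Esm1, a secreted proteoglycan of tip cells, had 0.26 (adjusted p = 0.650).

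Measured against each other, the members spread to both sides of the pan-endothelial genes. The median log2 fold change of 11 pan-endothelial members was 0.17, and with libraries scaled to the summed counts of those 11 genes the member median was -0.0091. On that scale Vwf was higher (1.14, adjusted p = 0.0173), Erg (-0.70, adjusted p = 0.00236) and Lmo2 (-0.70, adjusted p = 0.00132) were lower, and Flt1 (0.52, adjusted p = 0.0695) and Gpr116 (0.25, adjusted p = 0.186) did not pass. Erg and Lmo2 were thus lower per unit of pan-endothelial RNA too. That scaling moved the median of all genes to -0.16, so genes already lower stay lower, and this adds no separate evidence. The second endothelial list, with no member in it, had a median of 0.17 with 22 of 30 above 0. By the edgeR test 3 of the 30 rose and 0 fell, against 3.82% and 3.34% of all genes. At an unadjusted p under 0.05 by that test, 7 were up and 2 down, against 9.79% and 9.58% of all genes. DESeq2 called the same 3 and 0. On the pan-endothelial scale that list had a median of 0.01 with 16 of 30 above 0, and Bcl6b, Mmrn2 and S1pr1 fell beside the 3 that rose. On that scale 394 rose and 1426 fell of all 16166 genes. In the main fit, without that scaling, the 3 that rose began with Tmem100, a gene induced by BMP9 signalling in arteries (1.18, from 1.49 ± 0.238 to 3.42 ± 0.202 CPM). The others were Calcrl, the adrenomedullin receptor (0.78, from 21.4 ± 1.82 to 37.0 ± 0.0785), and Eltd1, an adhesion receptor of sprouting vessels (0.83). The last was lost without mutant replicate 1 (adjusted p = 0.220), and without wild-type replicate 2 there were 5 that rose, with Clec14a and Rhoj added. Without wild-type replicate 1 Stab1 also rose and Palmd fell.

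In the pathways around the members, the ligand gene Figf, which encodes VEGF-D, a ligand of FLT4, rose. It measured 9.36 and 8.76 CPM in the mutant and 2.64 and 2.31 in wild type (a log2 change of 1.86 ± 0.18, SE, at an adjusted p of 6.46e-05). The groups lie far apart, and the E10.5 library had 9.02 CPM. Figf was the only one of 13 tested VEGF and angiopoietin pathway genes that rose, and 0 fell (1 and 2 at an unadjusted p under 0.05 by the edgeR test; 1 risen and 0 fallen by DESeq2). Vegfa had 90.4 and 67.2 against 76.9 and 55.8 CPM (0.24, adjusted p = 0.436), and the members' own receptors are given above. The 11 Notch and apelin partner genes included 2 that fell and 0 that rose (1 upward at an unadjusted p under 0.05 by the edgeR test; 0 risen and 2 fallen by DESeq2): the ligand gene Jag1 (-1.93, adjusted p = 4.38e-07, from 169 ± 12.5 to 44.7 ± 4.77 CPM) and the Notch target gene Hes1 (-0.99, from 51.4 ± 0.943 to 26.1 ± 2.22 CPM). Both are widely used by limb mesenchyme, and Hey1, a vascular Notch target, had 0.18 with an adjusted p of 0.303. Of 8 tested genes of the endoglin and BMP9 receptor pathway 3 fell and 0 rose (4 and 1 at an unadjusted p under 0.05 by the edgeR test; 0 risen and 3 fallen by DESeq2). These were the BMP targets Id1 (-0.75) and Id3 (-0.60) and the inhibitor gene Smad7 (-0.46), which mesenchyme also expresses. Smad7 kept its call in 1 of the 4 fits that leave out a library, that without wild-type replicate 2. Acvrl1, the endothelial receptor for BMP9, had 0.31 with an adjusted p of 0.236.

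Vessel subtype lists showed few changes. Of 11 arterial genes, with the members Dll4 and Sox17 among them, 0 rose or fell by the edgeR test (3 up and 2 down at an unadjusted p under 0.05; 0 risen and 1 fallen by DESeq2, the latter being the chemokine receptor gene Cxcr4), with a median of 0.30. Of 4 venous genes, with a median of 0.04, 1 rose and 0 fell by the edgeR test (1 up and 1 down at an unadjusted p under 0.05; 1 risen and 0 fallen by DESeq2). Nr2f2, a nuclear receptor of veins and of mesenchyme, rose from 44.6 ± 4.67 to 65.1 ± 1.13 CPM (0.53, SE 0.11, adjusted p = 0.00983), while Nrp2, a co-receptor, had -0.22 (adjusted p = 0.189), Ephb4, the receptor for ephrin-B2, had -0.07 and Aplnr 0.15. The arterial median was above that of all members, but no test compared them.

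Markers of other cell types moved as well, and their part in the member values was not tested. Pericyte and smooth muscle genes summed to 341 and 302 CPM in the mutant and 325 and 237 in wild type. Of 11 tested, the potassium channel subunit gene Abcc9 (1.51) and the proteoglycan gene Cspg4 (0.69, and 0.45 without wild-type replicate 2) rose. The actin-binding Tagln (-1.35) fell. The median of the 11 was -0.15, with 5 above 0. In 2 both mutant libraries lay above both wild-type libraries and in 4 below, against 26.6% and 22.9% of all genes. Beside Tal1 and Lmo2, erythroid genes summed to 3276 and 3227 CPM in the mutant and 2677 and 2566 in wild type, with 1 of 10 tested genes risen, the embryonic globin gene Hbb-bh1 (0.81), and 2 by DESeq2, with Alas2 added. In 8 of the 10 both mutant libraries lay above both wild-type libraries, against 26.6% of all genes. At an unadjusted p under 0.05 by the edgeR test, 7 were up and 0 down. Hba-a1 was listed at 0 in all 5 libraries. Blood progenitor genes summed to 105.1 and 106.9 CPM against 129 and 127, and Kit (-1.03) and Myb (-0.45) fell, the latter with a call that ended without mutant replicate 1 (adjusted p = 0.0690), mutant replicate 2 (0.424) or wild-type replicate 2 (0.0608). Of the 8 progenitor genes 3 were above 0. Beside Erg, cartilage genes summed to 664 and 644 CPM in the mutant and 517 and 498 in wild type. Of 9 tested, the collagen gene Col9a1 rose (0.45, from 236 ± 39.6 to 327 ± 1.15 CPM) and the matrilin gene Matn4 fell (-0.88). Col9a1 had 0.27 without wild-type replicate 1 and lost its call without mutant replicate 1 (adjusted p = 0.0544), and Matn4 lost its own without mutant replicate 1 (0.110) or wild-type replicate 1 (0.0535). Also beside Erg, joint interzone genes summed to 72.2 and 63.5 against 70.8 and 70.1. Of 6, Gdf6 fell (-1.08) and 0 rose by the edgeR test. At an unadjusted p under 0.05 by that test, 2 were up, Gdf5 (0.41) and Chrd (0.62), and 1 was down. Beside Lyve1, macrophage genes summed to 89.5 and 86.7 CPM against 59.1 and 74.2. Of 14, the mannose receptor gene Mrc1 (0.62, and 0.36 without wild-type replicate 1) and the lysozyme gene Lyz2 (1.19) rose. A list of 12 ectoderm genes held genes of the ridge, the signalling centre at the limb tip, and genes of the wider surface ectoderm such as Krt14. Of these Fgf4 (4.06) and Fgf8 (1.06) rose and Sp6 (-0.81) and Krt14 (-0.42) fell. Krt14 lost its call without mutant replicate 1 or without wild-type replicate 2 (-0.32 in each).

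**Figure D3:**
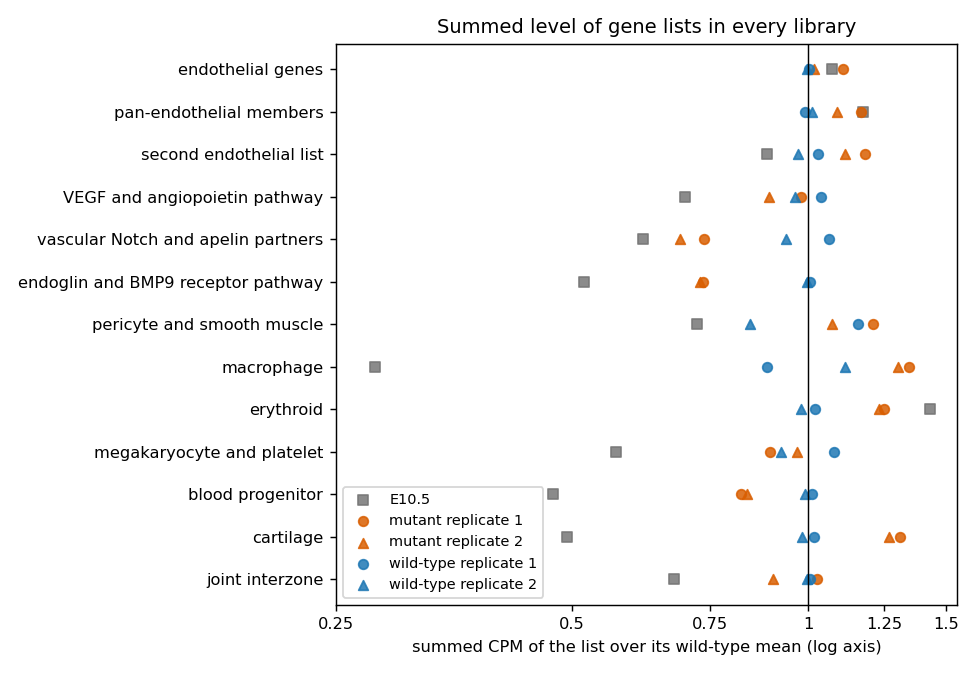
Summed CPM of each gene list divided by its wild-type mean (log axis) in the 5 libraries; squares are E10.5, orange is mutant and blue is wild type, with circles and triangles for replicates 1 and 2. The 3 endothelial lists lie near 1, with their E10.5 squares at 0.886 to 1.17, whereas the E10.5 square of the macrophage list lies at 0.281.

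The second comparison set the E10.5 bud beside the E11.5 wild-type distal limb, without a test because E10.5 had 1 library. A gene was called when E10.5 differed at least 2-fold from each wild-type library on log2 CPM with TMM scaling, which corrects for a few abundant genes taking up reads, and a prior count of 2. All 34 genes were detected at E10.5, 6 of them higher and 1 lower than in wild type, against 4.21% higher and 12.4% lower of 16489 genes. Those higher were Cdh5, Tal1, Sox17, Sox18, Esm1 and Lyve1, and the lower one was Prox1. The member median was 0.40 with 28 of 34 above 0, against 0.0085 over all genes. TMM scaling raises E10.5 values, and on plain CPM the all-gene median was -0.24 and the member median 0.15 with 23 above 0. Sox17 was then no longer called.

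**Figure D4:**
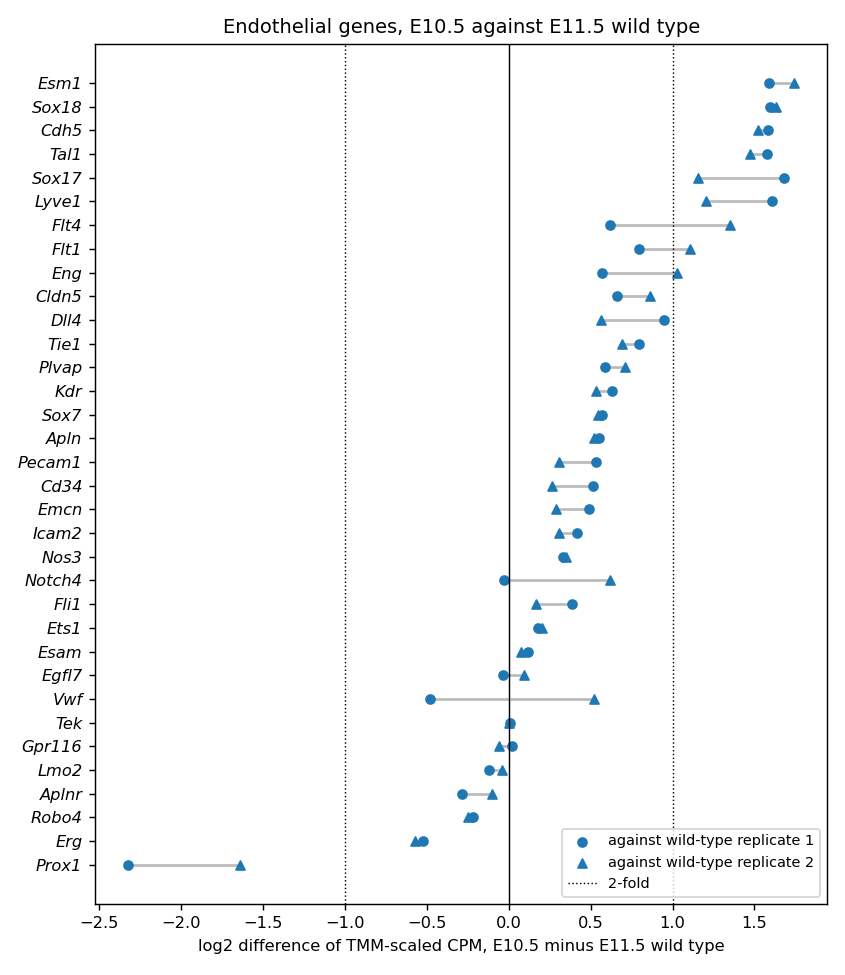
Log2 difference of TMM-scaled CPM, E10.5 minus wild-type replicate 1 (circle) and replicate 2 (triangle), for each of the 34 endothelial genes; dotted lines mark 2-fold. Both symbols lie beyond 2-fold for the 6 genes at the top and for Prox1 at the bottom, and between the lines or across one of them for the rest.

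Cdh5 stood at 44.2 CPM at E10.5 and 17.8 and 18.0 in the wild-type libraries, a log2 difference of 1.55 with TMM scaling, while Pecam1 stood at 51.1 against 42.7 and 48.5 (0.42). So 2 junction genes of the same cells differed in how far they were apart between the stages. Sox18 had 7.05 CPM against 2.79 and 2.65 (1.61) and Sox17 had 4.48 against 1.66 and 2.35 (1.42), and Sox7 had 3.42 against 2.77 and 2.74 (0.56). Tal1 had 12.8 CPM against 5.14 and 5.37 (1.53). Beside it, 10 erythroid genes had a median of 0.90 on the same log2 scale, with 0 of them below 0. The summed plain CPM of the erythroid list was 1.43 times the wild-type mean. Esm1 had 4.81 CPM against 1.91 and 1.67 (1.67), the largest of the members, whereas its fellow tip cell genes Apln and Dll4 had 0.54 and 0.75. Lyve1 rested on 24 counts at E10.5 against 4 and 7. Prox1 had 23 counts at E10.5 against 81 and 60, and was lower at 0.273 against 1.80 and 1.07 CPM (-1.98).

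The receptors Kdr (0.58), Flt1 (0.95), Flt4 (0.98) and Tie1 (0.74) were above 0 and short of the call, and Tek had 0.0047. Erg was lower at E10.5, at 12.5 CPM against 21.8 and 21.9 (-0.55), and so was Robo4, at 7.44 against 10.46 and 10.40 (-0.23), neither past 2-fold. With TMM scaling, done separately for the 2 comparisons, Erg differed from wild type by -0.55 at E10.5 and -0.54 in the mutant. For Lmo2 the values were -0.08 at E10.5 and -0.54 in the mutant. On plain CPM, Erg was at 0.573 of the wild-type mean at E10.5 and 0.692 in the mutant, so the near match depends on the scaling. Lmo2 was at 0.793 and 0.692. Both comparisons share the wild-type libraries. Macrophage genes at E10.5 summed to 0.281 of the wild-type mean, with 10 of 14 genes lower.

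Levels can be compared between genes only per length, taken here from the exons of the GENCODE M21 models on GRCm38, which may differ from those the authors counted on. Per kilobase, the wild-type level of Fli1 was the highest at 30.7 ± 2.74 CPM per kb, then Ets1 at 23.0 ± 0.734, Egfl7 at 19.9 ± 1.62, Lmo2 at 19.0 ± 1.12 and Cd34 at 18.0 ± 1.89. The last 3 do not differ beyond their spread. In the annotation 14.1% of the exon length of Egfl7 is shared with Gm20532 on the same strand, so its level is uncertain. Aplnr (11.1 ± 1.201) and Pecam1 (11.03 ± 0.996) came next, overlapping in their spread. Kdr stood at 8.89 ± 0.251, far above Flt1 at 0.818 ± 0.141, and Erg at 6.30 ± 0.0311 was well below the other ETS genes. At the low end were Vwf at 0.381 ± 0.189, Prox1 at 0.171 ± 0.0608 and Lyve1 at 0.0370 ± 0.00897 CPM per kb. Cdh5, at 4.48 ± 0.0382, ranked 16 of 34.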

How the data were processed

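The deposited tables hold raw counts for each gene symbol. HTSeq, TopHat2 2.0.13, Cufflinks 2.1.1, SAMtools and the build mm9 are named, without roles, per the submitters' processing notes. The strand setting, annotation and filters of the counting are not given in the sources used here, so overlapping and antisense genes are uncertain. The labels' protocols give ribosomal depletion and strand-specific libraries. The 5 HTSeq total lines were left out; reads in no feature made up 24.3 to 39.6% of the reads those tables tally. Counts ran from 45115494 to 84172202 per library.

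Mutant and wild-type E11.5 libraries were compared with genotype as the only term: filterByExpr (minimum count 10, minimum total 15), TMM, quasi-likelihood fits with edgeR 4.0.16 (R 4.3.3), and Benjamini-Hochberg adjustment over all genes tested. E10.5 was left out of that fit. For E10.5, genes with at least 10 counts in 1 library were described at 2-fold. All 34 members were named, with values per library for those called or, without overlap, at an absolute log2 fold change of at least 0.4; from context lists, called genes were named, up to 4 per list, and further genes as background. The members and lists were chosen with earlier results of these data known. The fit was tested on simulated data. DESeq2 1.42.0 and other scalings, filters and left-out libraries were alternatives. Spi1 was looked up as Sfpi1, and Apela and Snorc matched no symbol.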

Additional observations from a re-analysis of the deposited data

How the results depend on the processing

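Each genotype had 2 pools, which limits the precision. Only Lyve1 and Prox1 rested on under 100 counts in every library. Leaving out each E11.5 library in turn gave 410 to 1113 risen and 373 to 905 fallen genes in all (617 and 540 with all 4 libraries), 1 to 3 risen and 1 to 2 fallen members, and a member median of 0.10 to 0.20. Erg, Lmo2 and Vwf were called without mutant replicate 1, and Eng, Flt1, Lmo2 and Vwf without mutant replicate 2. A fit with 1 library in a group assumes that it varies like the other group.

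Without the filter on low counts 959 genes rose in all, and 5 members rose, with Eng and Kdr added. With plain library totals, chosen after seeing the data, 0 members rose by the edgeR test, against 533 risen and 412 fallen of all 16166 genes. At an unadjusted p under 0.05 by that test, 8 members were up, and DESeq2, with its own size factors, called 4 risen. Flt1, Gpr116 and Vwf had edgeR adjusted p of 0.0707, 0.0507 and 0.0508 with plain totals, while Erg and Lmo2 stayed called. Scaled to the pan-endothelial genes, 1 member rose and 2 fell, against 394 risen and 1426 fallen of all 16166 genes. The member median was -0.0091, which follows from that scaling. At E10.5, 10 members were higher at a 1.5-fold threshold, where 10.6% of all genes were. The member median was 0.41 with DESeq2 size factors and 0.15 on plain CPM, added after seeing the data. Against a single wild-type library the member median was 0.522 to 0.523. Without wild-type replicate 1, 9 members were higher, against 6.28% of all genes. Without the other replicate 6 were higher, against 5.62% of all genes.

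The labels number the replicates alike in both genotypes without saying what a number shares. The difference between replicates 1 and 2 had a correlation of -0.08 between the genotypes over 16166 genes. With the replicate block 676 genes rose and 576 fell, and 4 members rose and 2 fell, Eng being added. The newer quasi-likelihood estimate of edgeR and the size factors of DESeq2 kept each count within 1.5 times, and no member that was called changed direction under any alternative run.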
